A study of Homo sapiens with 2 samples.

Results

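The genes described here are 30 members of the p53 pathway: direct targets of the transcription factor p53 and the proteins that restrain it. They were chosen from the platform annotation by symbol or Entrez gene, with the single-gene probe set of the highest mean standing for each gene. Of the 30, 28 were measured among 18417 genes in all, and BTG2 and FDXR were not analysed here. Each of the 28 had 1 probe set of its own. The samples were 2 cultures of Huh-7, an established human hepatocellular carcinoma line. The first group held cells transfected with siRNA against DEPDC1, and the other held cells transfected with the control that the labels call NC, both collected 72 h after transfection. The sequence and number of the siRNAs are not given in the sources used here. With 1 array for each group, the differences below have no replicate spread behind them, and no test was run.

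The protein p53 binds DNA and switches on genes that stop the cell cycle, repair DNA, adjust metabolism or kill the cell. MDM2 and MDM4 hold p53 in check, and MDM2 is itself a p53 target, which closes a feedback loop. Many of these genes also answer to other regulators, such as the stress kinases, ATF4 and growth factor signals.

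All values are log2 expression as deposited. Differences are on the same scale and run siRNA minus NC, so a positive one means higher in the siRNA array. Genes are called detected if at least 1 array reached 4.66, the median of the probe sets, a level chosen by convention. In bulk RNA of a culture, fewer cells with a transcript and less of it per cell cannot be told apart. The siRNA target was lower as labelled: DEPDC1 had 5.15 in the siRNA array and 7.82 in the NC array, 6.37-fold lower. All 9 measured hepatocyte markers were detected, with 4 of them lower and 1 higher by 2-fold or more. Their mean level was 9.06 in the siRNA array and 9.72 in the NC array. Of 8 fibroblast and stellate cell markers 5 were detected, with a mean level over all 8 of 5.44 in the siRNA array and 5.02 in the NC array. Of the 5, LUM (difference 2.31) and COL1A2 (1.07) were at least 2-fold higher, while the other 3 had differences of 0.09 (PDGFRA), 0.06 (COL1A1) and -0.04 (COL3A1). PDGFRB (-0.40), ACTA2 (0.05) and DCN (0.15) lay under the threshold in both arrays. None of 5 endothelial and 4 measured T and B cell markers was detected, and 2 of 5 macrophage markers were. The part of the liver and fibroblast marker differences in the values below was not tested.

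Of the 28 measured members, 23 were detected. Detection took the higher value, so a member could pass through the array in which it was high. PLK2, a polo-like kinase, was 3.65-fold higher in the siRNA array, and ZMAT3, a zinc finger RNA-binding protein, was 2.34-fold lower. No other detected member differed by 2-fold. At this fold 1 of 23 members was thus higher and 1 lower, where 1.94% of all 11352 detected genes were higher and 0.863% lower by that much. By sign, 11 members were higher and 12 lower, against 49.9% and 48.1% of all detected genes. The median difference of the members was -0.03, beside 0.00 over all detected genes. The members thus lay on both sides of zero in nearly equal numbers.

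The members were spread more widely than that median shows, at the far ends on the lower side. Of the 23, 5 lay below the 5th percentile of all detected genes and 1 above the 95th. The median difference of the members without regard to sign was 0.33, beside 0.19 over all detected genes. A gauge of measurement noise came from 444 other genes with several detected probe sets, whose differences spanned a median of 0.09 and a 90th percentile of 0.41. Probes shared between such probe sets would make the gauge too small, and it holds no spread between cultures. Of the 23 members, 11 differed by more than the 90th percentile of this gauge, and 19.5% of all detected genes did. Another 3 members, MDM4, DRAM1 and TRIAP1, differed by less than its median. At a fold of 1.5, 1 member was higher and 3 lower, beside 6.03% and 3.74% of all detected genes.

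**Figure D1:**
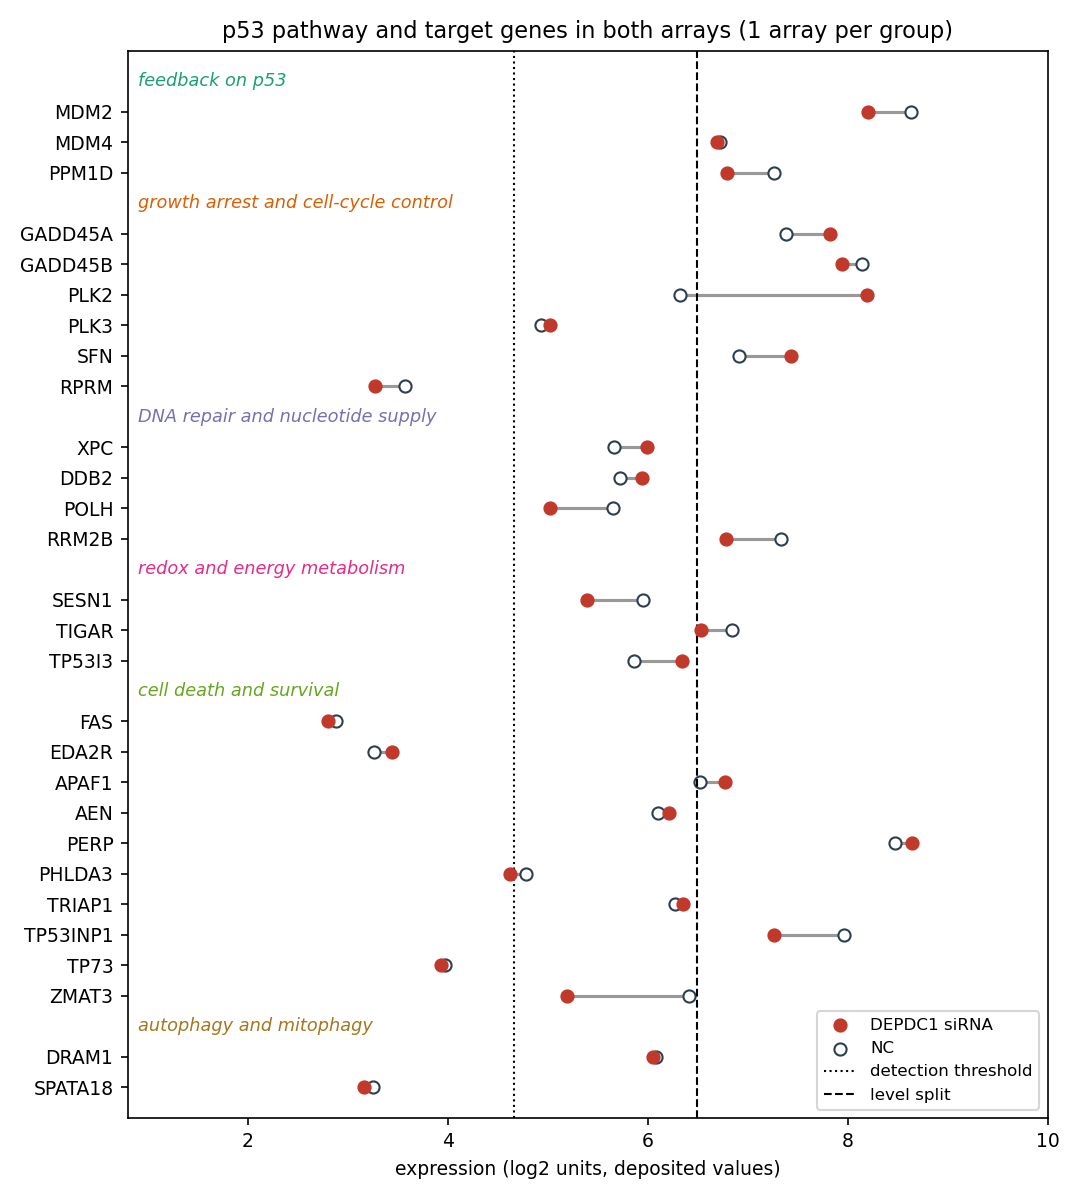
Expression of the 28 measured members in the array of DEPDC1 siRNA cells (filled points) and the array of NC cells (open points), in log2 units on the horizontal axis and grouped by role. The dotted line is the detection threshold of 4.66 and the dashed line the level split of 6.49. The longest line belongs to PLK2, with the siRNA point to the right, and the next longest to ZMAT3, with the siRNA point to the left.

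Of the regulators that feed back on p53, all 3 were lower, none by 1.5-fold, where 48.1% of all detected genes were lower. MDM2 encodes the ubiquitin ligase that marks p53 for destruction. It had 8.21 in the siRNA array and 8.63 in the NC array, a difference of -0.42. PPM1D encodes WIP1, a phosphatase that switches off p53 and its upstream kinases, and had 6.79 in the siRNA array and 7.26 in the NC array, a difference of -0.47. MDM4, a relative of MDM2 that blocks the activation domain of p53, was nearly level, with 6.70 in the siRNA array and 6.72 in the NC array. MDM2 and PPM1D thus differed by slightly more than the 90th percentile of the noise gauge, and MDM4 by less than its median. Among all detected genes, 7.39% were lower by at least as much as MDM2 and 6.16% by at least as much as PPM1D.

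MDM2 has a second start site whose promoter is well known for p53 response elements. A window of RefSeq promoter sequence (GRCh38.p14) from 250 bases before to 50 after each start was searched for the p53 consensus, which is 2 copies of a 10-base element. Up to 2 mismatches in all and up to 13 bases between the copies were allowed in a relaxed search. The MDM2 stretch is shown because it carries such a pair, in capitals, at chr12:68808918-68808947 on the plus strand, with 2 mismatches and 94 to 75 bases before the start:
MDM2: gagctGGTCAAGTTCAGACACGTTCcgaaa
The relaxed pair was found in 7 of the 26 members with a promoter in the table, AEN, DDB2, FAS, FDXR, MDM2, SESN1 and TP73, and in 9.53% of all 27305 genes of the table. A gene with several starts has more windows in which a match can fall. By window, the pair was found in 9 of 39 member windows and in 7.82% of all 35116 windows. A match is a description of the letters and not a measured binding site.

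The genes of growth arrest and cell-cycle control held the largest member difference. Of 7 listed, 6 were measured and 5 detected. Of the 5, 4 were higher and 1 lower, against 49.9% and 48.1% of all detected genes. PLK2 encodes a kinase of centriole duplication that is also an early stress and serum response gene. It had 8.19 in the siRNA array and 6.32 in the NC array, a difference of 1.87. That placed it at rank 40 from the top of all 11352 detected genes. Its relative PLK3, a stress-responsive kinase, was nearly level with 5.02 in the siRNA array and 4.93 in the NC array (difference 0.09).

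The promoter of PLK2 is shown because this member differed most. The 250 bases before its start, at chr5:58460087-58460336 on the minus strand, hold 1 exact copy of the 10-base p53 element, in capitals, 132 to 123 bases before the start:
PLK2: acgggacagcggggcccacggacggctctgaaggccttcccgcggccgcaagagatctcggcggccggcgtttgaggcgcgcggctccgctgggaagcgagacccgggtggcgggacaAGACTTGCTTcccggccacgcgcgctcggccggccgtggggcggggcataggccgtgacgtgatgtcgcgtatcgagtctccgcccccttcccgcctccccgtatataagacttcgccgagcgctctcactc
An exact copy on either strand was found in 6 of the 26 members with a promoter, AEN, DDB2, FAS, FDXR, PLK2 and SESN1, and in 8.06% of all genes of the table. By window, it was found in 6 of 39 member windows and in 6.63% of all windows. The detected members among these 6 did not share a direction, with differences of 1.87 for PLK2, 0.22 for DDB2, 0.11 for AEN and -0.56 for SESN1.

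SFN and GADD45A were also higher. SFN encodes 14-3-3 sigma, which holds mitotic kinase complexes in the cytoplasm, and had 7.43 in the siRNA array and 6.92 in the NC array, a difference of 0.52. GADD45A, a stress sensor that inhibits the CDK1 complex, had 7.82 in the siRNA array and 7.38 in the NC array, a difference of 0.44. Both exceeded the 90th percentile of the noise gauge and stayed under 1.5-fold. GADD45B, a related stress gene that also answers to TGF-beta and NF-kB, lay in the other direction, with 7.94 in the siRNA array and 8.15 in the NC array (difference -0.20). RPRM, which encodes the G2 arrest protein reprimo, was under the detection threshold with 3.27 in the siRNA array and 3.57 in the NC array.

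The DNA repair genes divided into 2 that were higher and 2 that were lower, against 49.9% and 48.1% of all detected genes. POLH encodes polymerase eta, which copies past ultraviolet lesions. It had 5.02 in the siRNA array and 5.65 in the NC array, 1.54-fold lower. RRM2B, the p53-inducible subunit of ribonucleotide reductase that supplies nucleotides for repair, had 6.78 in the siRNA array and 7.33 in the NC array, a difference of -0.55. Both lay among the lowest 5% of differences of all detected genes, which ended at -0.52.

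The damage sensors of nucleotide excision repair lay on the other side. XPC had 5.99 in the siRNA array and 5.67 in the NC array, a difference of 0.33. DDB2, the partner of XPC that finds ultraviolet lesions in chromatin, had 5.94 in the siRNA array and 5.72 in the NC array, a difference of 0.22. Both differences were under the 90th percentile of the noise gauge. A stretch of a DDB2 promoter window is shown, at chr11:47214975-47215003 on the plus strand. This was the only member window with an exact pair of the p53 element, in capitals, 6 to 26 bases after a start:
DDB2: gtttGAACAAGCCCtGGGCATGTTTggcg
Such an exact pair was found in 10 of the 27305 genes of the table, or 0.0366%.

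Of the redox and energy genes 3 of 4 were measured. SESN1 encodes sestrin 1, which restrains mTORC1 and supports antioxidant defence. It had 5.39 in the siRNA array and 5.95 in the NC array, 1.47-fold lower, also within the lowest 5% of all detected genes. TIGAR, a phosphatase that lowers glycolytic flux, had 6.54 in the siRNA array and 6.84 in the NC array, a difference of -0.31. TP53I3, a quinone oxidoreductase linked to reactive oxygen species, lay in the other direction, with 6.34 in the siRNA array and 5.87 in the NC array (difference 0.48).

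The genes of cell death and survival formed the largest role group, with 10 measured and 7 detected. Of the 7, 4 were higher and 3 lower, against 49.9% and 48.1% of all detected genes. ZMAT3, also called Wig-1, regulates the splicing and stability of other transcripts. It had 5.19 in the siRNA array and 6.42 in the NC array, a difference of -1.23 and rank 54 from the bottom of all detected genes. TP53INP1, which supports p53 activity and autophagy, had 7.27 in the siRNA array and 7.96 in the NC array, 1.62-fold lower. These were the largest decreases of the list, and 0.476% and 2.52% of all detected genes were lower by at least as much.

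The upstream sequence of ZMAT3 is shown beside that of PLK2 because these members differed most and in opposite directions. The 250 bases before its upstream start, at chr3:179071810-179072059 on the minus strand, held no exact copy of the p53 element:
ZMAT3: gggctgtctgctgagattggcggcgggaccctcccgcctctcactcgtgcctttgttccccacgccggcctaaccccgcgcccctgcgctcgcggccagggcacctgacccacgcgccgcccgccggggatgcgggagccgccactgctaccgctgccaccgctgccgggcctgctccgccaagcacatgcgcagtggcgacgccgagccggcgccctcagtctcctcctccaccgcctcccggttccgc
This says only that these letters are not in this window, since p53 elements often lie in introns or further away.

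Several effectors of death were slightly higher. APAF1, the scaffold of the apoptosome, had 6.77 in the siRNA array and 6.52 in the NC array, a difference of 0.25. PERP, a membrane protein of desmosomes and apoptosis, had 8.65 in the siRNA array and 8.48 in the NC array (difference 0.17). AEN, an apoptosis-enhancing nuclease, had 6.21 in the siRNA array and 6.10 in the NC array (difference 0.11). The survival factor TRIAP1, a mitochondrial lipid transfer subunit, differed by 0.07, with 6.35 in the siRNA array and 6.27 in the NC array. None of these exceeded the 90th percentile of the noise gauge. Among all detected genes, 21.8% were higher by at least as much as APAF1 and 40.8% by at least as much as TRIAP1.

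PHLDA3, an inhibitor of AKT, stood at the detection threshold, with 4.62 in the siRNA array and 4.78 in the NC array. Its siRNA value lay under the threshold, so its fold is a bound, at least 1.09-fold lower. The death receptors FAS and EDA2R were not detected. FAS had 2.80 in the siRNA array and 2.88 in the NC array, and EDA2R had 3.44 in the siRNA array and 3.26 in the NC array. TP73, the p53 relative, was likewise under the threshold with 3.93 in the siRNA array and 3.98 in the NC array.

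In the autophagy group 1 of 2 genes was detected. DRAM1, a lysosomal membrane protein that promotes autophagy, had 6.05 in the siRNA array and 6.08 in the NC array. SPATA18, which acts in mitochondrial quality control, was under the threshold with 3.16 in the siRNA array and 3.25 in the NC array. Over the 5 members under the threshold, FAS, EDA2R, TP73, SPATA18 and RPRM, differences ran from -0.30 to 0.17 and no fold is given.

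Because bright and dim probe sets may behave differently, the detected members were split at a mean level of 6.49, which 75% of probe set values did not reach. The 12 members at or above this level had a median difference of -0.11, beside 0.02 over the 5336 genes of that level. The 11 members under it had a median of 0.07, beside 0.00 over 6016 genes. Just above the split lay APAF1, with a mean of 6.64, and just under it TRIAP1, with 6.31. The medians differed in sign here, but with no detection filter both were negative, at -0.11 for the brighter and -0.037 for the dimmer members. Taken without regard to sign, the median of the 12 brighter members was 0.43, beside 0.21 over the genes of that level. For the 11 dimmer detected members it was 0.22, beside 0.18.

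At or above the split, 5 members were higher and 7 lower, against 51.7% and 47.3% of genes of that level. The 7 were MDM2, MDM4, PPM1D, GADD45B, RRM2B, TIGAR and TP53INP1, and the 5 were GADD45A, PLK2, SFN, APAF1 and PERP. The mean of the 12 was 0.05, of opposite sign to their median, and PLK2 was the member furthest from it. Without PLK2, a choice made after seeing the data, the median of the other 11 was -0.20. Under the split, 6 members were higher and 5 lower, against 48.3% and 48.8% of genes of that level, and their mean was -0.12, again of opposite sign to their median.

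**Figure D2:**
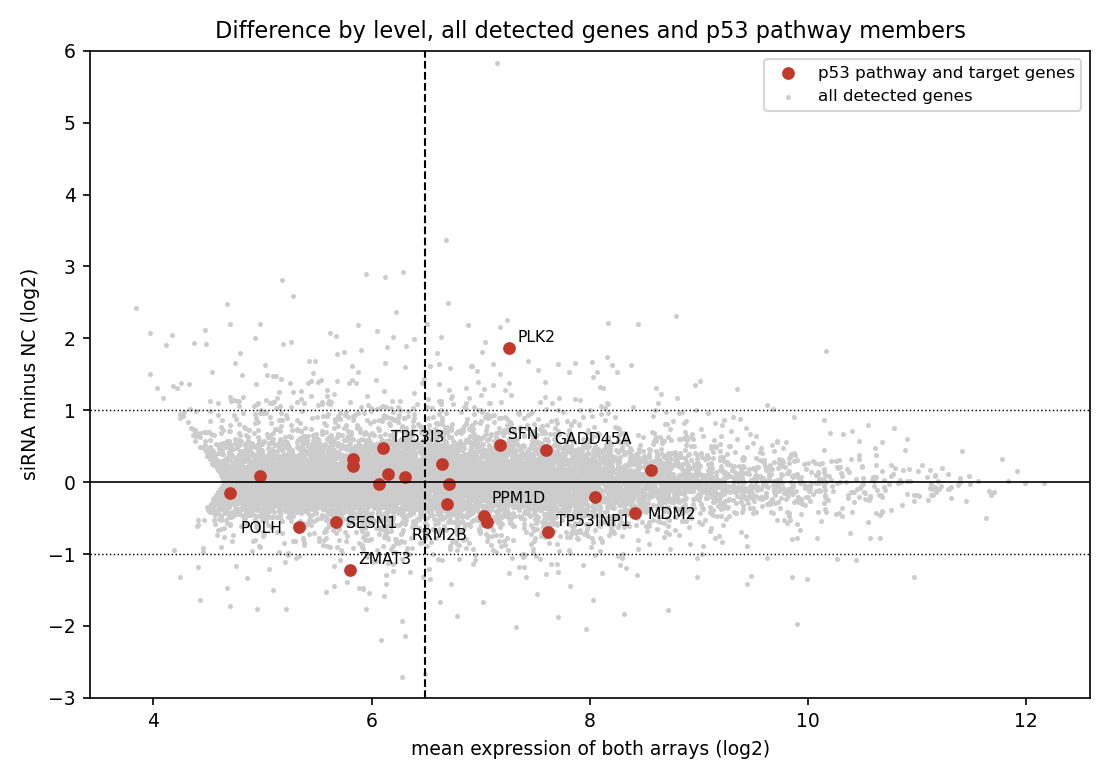
The siRNA minus NC difference (log2, vertical axis) against the mean expression of both arrays (log2, horizontal axis) for 11352 detected genes (grey) and the 23 detected members (red), of which those differing by at least 0.4 are named. Dotted lines mark 2-fold and the dashed line the level split of 6.49. PLK2 lies above the upper and ZMAT3 below the lower dotted line.

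To set the members in the wider pathway, 2 further lists were counted. Of 40 other p53 targets, 36 were measured and 31 detected, with 20 higher, 10 lower and PIDD1 equal in both arrays, against 49.9% higher and 48.1% lower among all detected genes. Their median was 0.10, beside 0.00 over all detected genes. KITLG, the ligand of the KIT receptor, was the 1 gene of 31 that was at least 2-fold different, where 1.94% of all detected genes were higher by that much. It had 5.81 in the siRNA array and 3.60, under the threshold, in the NC array, so that it was at least 2.22-fold higher.

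CDKN1A, BAX and BBC3 differed little. CDKN1A encodes the CDK inhibitor p21 and had 5.27 in the siRNA array and 5.25 in the NC array, a difference of 0.02. BAX, a pore-forming apoptosis protein, had 7.21 in the siRNA array and 7.12 in the NC array. BBC3, which encodes the BH3-only protein PUMA, had 5.78 in the siRNA array and 5.68 in the NC array. These 3 differences were 0.10 or less, well inside the 90th percentile of the noise gauge. Of the other targets with the largest differences, IGFBP3, which binds insulin-like growth factors, had 8.24 in the siRNA array and 7.64 in the NC array (difference 0.60). PLCL2, a phospholipase C-like protein, had 5.25 in the siRNA array and 4.69 in the NC array (difference 0.56). THBS1, the matrix protein thrombospondin 1, differed by 0.55, with 9.998 in the siRNA array and 9.44 in the NC array. The lowest difference of this list, nearly as large in size, was -0.55 for RPS27L. It had 7.31 in the siRNA array and 7.86 in the NC array.

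Of 20 regulators of p53, 18 were measured and all 18 were detected, with 8 higher and 10 lower, against the same 49.9% and 48.1%, and none at least 2-fold different. Their median was -0.04. DAXX, a histone chaperone that binds MDM2, had 5.36 in the siRNA array and 4.73 in the NC array, a difference of 0.62. SIRT1, the deacetylase that removes activating marks from p53, had 6.79 in the siRNA array and 7.41 in the NC array, a difference of -0.62. CDKN2A, whose locus encodes the MDM2 inhibitor ARF and the CDK inhibitor p16, had 6.03 in the siRNA array and 5.54 in the NC array (difference 0.50). TP53BP1, a DNA break response protein, had 6.43 in the siRNA array and 5.99 in the NC array (difference 0.44). These 4 lay on both sides of zero, as the members did.

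**Figure D3:**
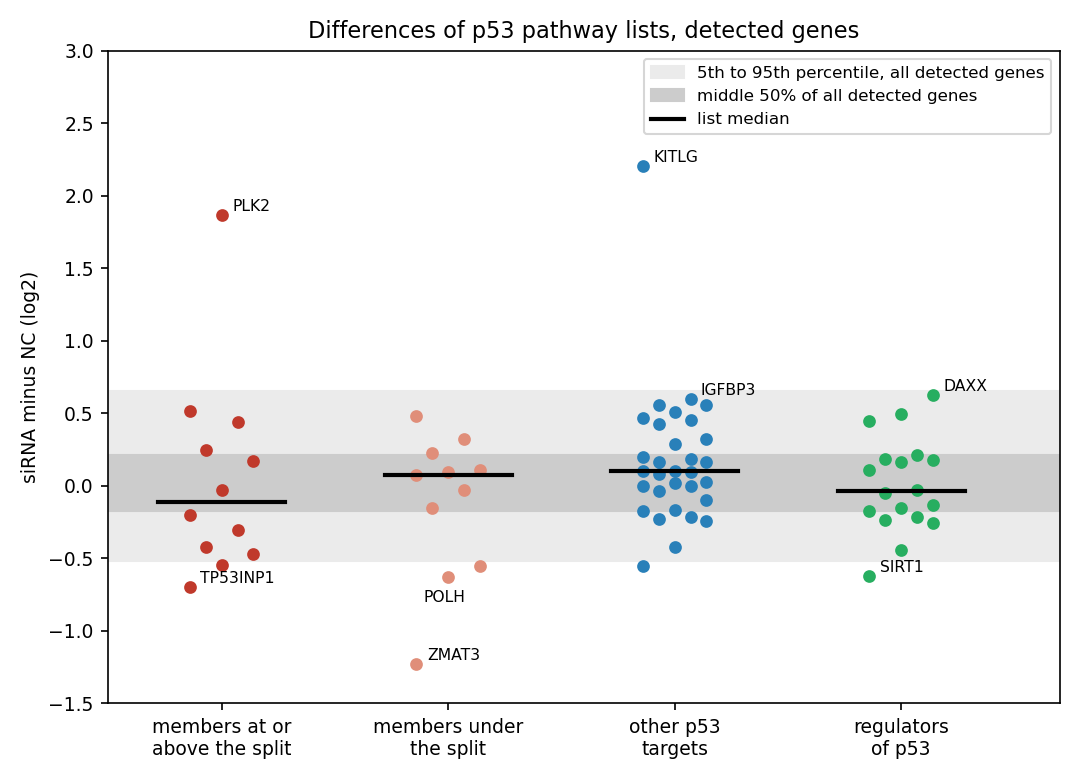
The siRNA minus NC difference (log2, vertical axis) of each detected gene, 1 point a gene, for the 12 members at or above the level split, the 11 members under it, 31 other p53 targets and 18 regulators of p53. Black bars are list medians (-0.11, 0.07, 0.10 and -0.04), and grey bands show the middle 50% and the 5th to 95th percentile of all detected genes. Of the members, PLK2 lies above the wide band and ZMAT3, TP53INP1, POLH, SESN1 and RRM2B below it, and KITLG is drawn at its measured difference of 2.20.

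Set against all detected genes, whose 5th and 95th percentiles were -0.52 and 0.65, 5 members lay below the 5th percentile and 1 above the 95th. The 5 were ZMAT3, TP53INP1, POLH, SESN1 and RRM2B, and the 1 was PLK2. Of the other p53 targets 1 lay below and 1 above. Of the regulators 1 lay below and none above. The middle 50% of all detected genes, from -0.18 to 0.21, held 7 of the 23 members, 16 of the 31 other targets and 9 of the 18 regulators. These counts describe the present pair of arrays and are no test of the siRNA.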

How the data were processed

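Total RNA was isolated with TRIzol and labelled with biotin as cRNA for Affymetrix arrays, per the labels' protocols. The submitters' processing notes name Affymetrix Expression Console, and Transcriptome Analysis Console 3.0, without a stated role. Background correction, normalization and unit are not given in the sources used here. The values the authors deposited had medians of 4.64 (siRNA) and 4.67 (NC) and a range of 1.39 to 12.7. Sorted columns differed by at most 0.0997, so the deposited values were taken as log2 and as normalized between the arrays. In 225 detected genes both values were equal. Background signal compresses the differences of dim genes.

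Of 33297 probe sets, 19460 had 1 gene in GEO's platform annotation, 1754 several and 12083 none listed. Symbols were updated by Entrez identifier against RefSeq of GRCh38.p14 (19429 matched). The probe set with the highest mean was used per gene. Calls were at least 2-fold by measured values, with values under the threshold giving a bound. With 1 array a group no test was run, and the number of arrays limits the precision. The members, lists and role groups were chosen with earlier results of these data known. Named were all members, DEPDC1, CDKN1A, BAX, BBC3 and up to 4 genes with the largest difference from each of the other lists. PIDD1, RPS27L and the marker genes of fibroblasts and stellate cells were named after their values were seen. The fold calls were tested on simulated arrays with planted changes of more than 2-fold. That test does not cover the smaller differences given here. Alternatives changed the scaling, the probe set rule, the detection filter, the fold and the level split. Python 3.11.15, pandas 2.3.3 and numpy 2.4.6 were used.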

Additional observations from a re-analysis of the deposited data

How the results depend on the processing

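With 1 array a group, no replicate could be left out. No paired analysis was possible because each group had 1 array and no test was run. Differences were called moved when they changed by more than 0.0866, the median of the probe set gauge. Under the 3 rescalings (quantile normalization, centring, removal of the level trend) none of 69 recomputed differences of the 23 detected members changed sign or moved by more than 0.0744, and 1 member was at least 2-fold higher and 1 lower in each. The other probe set rules could not change a member, since each had 1 probe set, and raising low values to the threshold could change only PHLDA3. Centring shifted the median of all detected genes to -0.06. It left 18 of the other targets higher and 14 lower, with a median of 0.04. Quantile normalization gave 21 higher and 10 lower, and removal of the level trend 22 and 9. With detection at the 75th percentile, which leaves fewer genes, 0 members were at least 2-fold lower. By any amount 5 were higher and 7 lower, and the member median was -0.11. The median over all 5757 genes detected in that setting was 0.02, and their shares by direction were not counted. In that setting the other targets had 0 genes at least 2-fold higher, with 12 higher and 6 lower by any amount, and the regulators had 4 higher and a median of -0.13. At a fold of 1.5 there were 3 members lower, 2 other targets higher, and 1 regulator higher and 1 lower. Without the filter the median of the dimmer members was -0.037, of the same sign as that of the bright members. Without PLK2 and ZMAT3, chosen after seeing the data, the median of the bright members was -0.20. What a probe set reads from background rather than transcript was not measured, which limits the 5 undetected members and PHLDA3.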
